A study of Mus musculus with 2 samples.

Results

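A set of 10 genes of antigen presentation by the major histocompatibility complex (MHC) were followed in embryonic mouse cartilage. They were H2-DMa, H2-DMb2, H2-Ab1, H2-Eb1, H2-K1, B2m, Tap1, Tapbp, Cd74 and Ciita, 10 of the 18193 genes that the array names with a probe set of their own. Every probe set naming 1 of them alone was taken, 25 in all. The genes were chosen with their signals on these same arrays known, above all the high H2-DMa signal on 1 of them, so every count over them is a description. Total RNA of cartilage from wild-type mouse embryos (strain C57BL/6J, stage E17.5, shortly before birth) was hybridized to both arrays. The first array, called round here, came from sections enriched with round chondrocytes, and the second, columnar/hypertrophic, from sections enriched with columnar and hypertrophic chondrocytes. The RNA of 3 cartilage plate portions was mixed for each array, so a group is 1 array and the spread between animals was not measured. Neither group carried a mutation or received a treatment.

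MHC molecules display peptides on the cell surface to T cells. Class I molecules, made of a heavy chain and β2-microglobulin, are found on most nucleated cells and carry peptides that the TAP transporter brings from the cytosol into the endoplasmic reticulum. Class II molecules are made chiefly by dendritic cells, macrophages and B cells. Their α and β chains assemble with the invariant chain Cd74, proteases in endosomes trim it to a short fragment, and the editor H2-DM exchanges that fragment for an antigenic peptide. The coactivator Ciita switches on the class II genes through factors bound to their X and Y promoter boxes, and interferon gamma induces Ciita in many other cell types.

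The values are MAS5 signals, which are linear and scaled to 1 trimmed mean on both arrays. A floor of 100.5 marks the signal that chemosensory receptor genes, not expected in cartilage, stayed under at 95% of their probe sets. A signal under the floor is treated as not measured. Differences are log2 values, columnar/hypertrophic minus round, after raising signals to the floor. A gene under the floor on 1 array therefore has only a bound, written "at least", and a gene under it on both has no difference. Each gene is represented by the probe set with the highest mean, and the other probe sets of the 10 genes are given beside it. For further genes another probe set is given where it differed clearly. No test could be run and no replicate error given, since each group is a single array. Probe sets of the same gene differed among themselves with an SD of 0.37 on the log2 scale, over 4825 genes, which is a technical spread only.

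Of the 10 genes, 8 exceeded the floor on 1 array or both, and 2 of them, H2-DMa and H2-DMb2, were higher by 2-fold or more in columnar/hypertrophic cartilage. Among all 11703 genes that exceeded the floor on 1 array or both, 504 or 4.31% were at least 2-fold higher and 745 or 6.37% at least 2-fold lower. By the representative probe sets none of the 10 genes was 2-fold lower. The median difference of the 8 genes was 0.63, beside -0.05 over all genes. Of the 8 differences 6 were above 0 and 2 were below, those of B2m and Tap1. The 6 include H2-DMb2 and H2-Eb1, whose representative probe sets exceeded the floor on the columnar/hypertrophic array alone. Their differences are bounds that could only be above 0, and the median counts them at those bounds. Cd74 and Ciita were under the floor on both arrays.

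**Figure D1:**
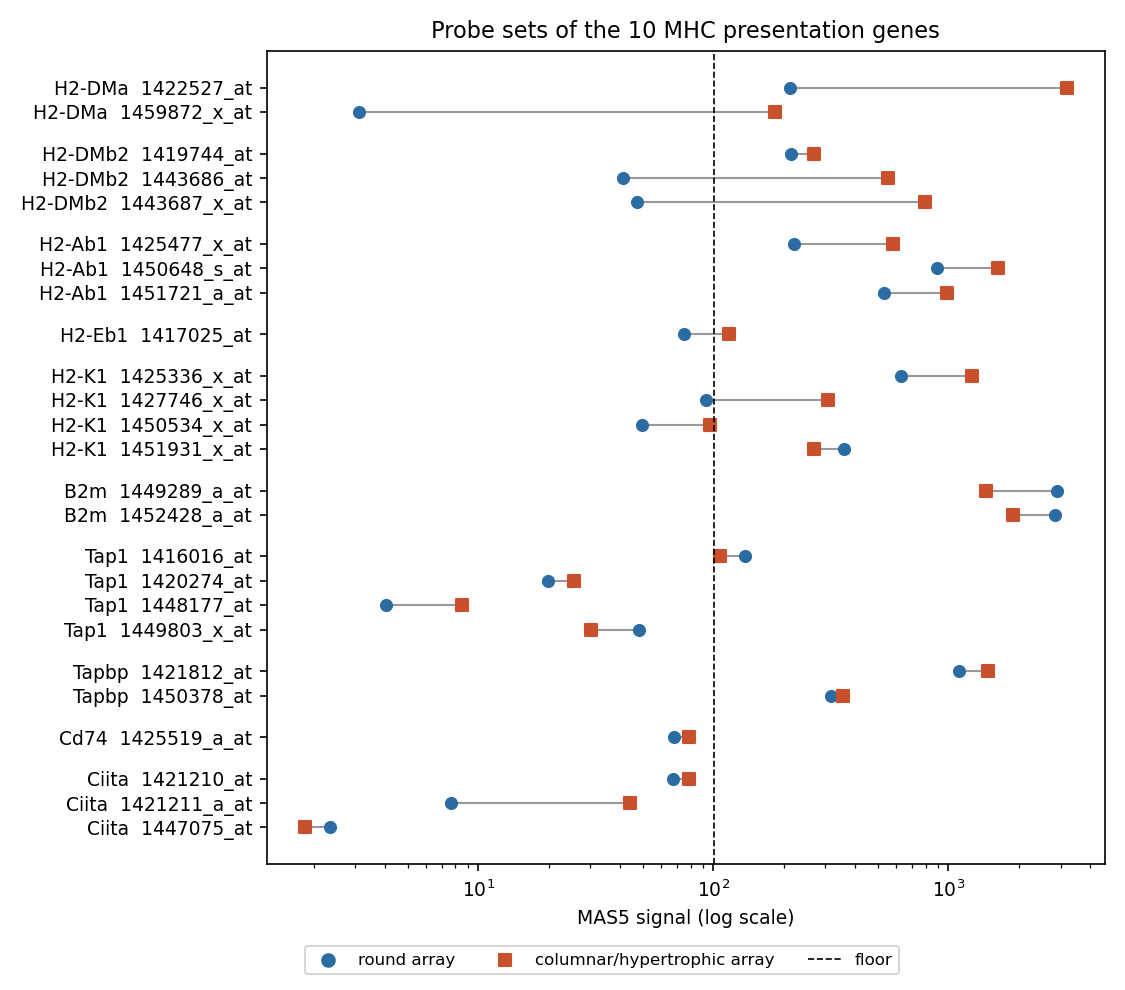
MAS5 signals (log axis) of the 25 probe sets of the 10 MHC presentation genes, with a circle for the round array, a square for the columnar/hypertrophic array and a dashed line at the floor of 100.5. The widest gaps that reach above the floor belong to H2-DMa and H2-DMb2, while all Cd74 and Ciita probe sets stay under the floor.

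H2-DM is a heterodimer, and H2-DMa encodes its α chain. The H2-DMa probe set 1422527_at gave a signal of 212 on the round and 3186 on the columnar/hypertrophic array. This is a 15.0-fold higher signal, or 3.91 on the log2 scale. The difference ranked 7 among the 10235 genes that exceeded the floor on each array, counted from the highest. The other H2-DMa probe set, 1459872_x_at, read 3.11 and 184. Its round signal was under the floor, so this probe set bounds the difference at 1.83-fold or more in the same direction.

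H2-DMb2 encodes a β chain of the same heterodimer. Its probe set 1443687_x_at read 47.1 on the round and 796 on the columnar/hypertrophic array, at least 7.92-fold higher. The probe set 1443686_at read 41.1 and 553, at least 5.50-fold higher. The third, 1419744_at, gave 213 and 269, a difference of 0.33, so the probe sets of this gene disagreed in size. Without a floor 1419744_at becomes the representative and the gene is no longer 2-fold apart. A further 2 probe sets match H2-DMb2 and its near-identical neighbor H2-DMb1 together and were assigned to neither. Their signals were 70.3 and 732 for 1418638_at, and 80.2 and 1265 for 1449580_s_at, again under the floor on the round array alone. Which of the 2 β chain genes these probes measured cannot be read from the arrays.

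**Figure D2:**
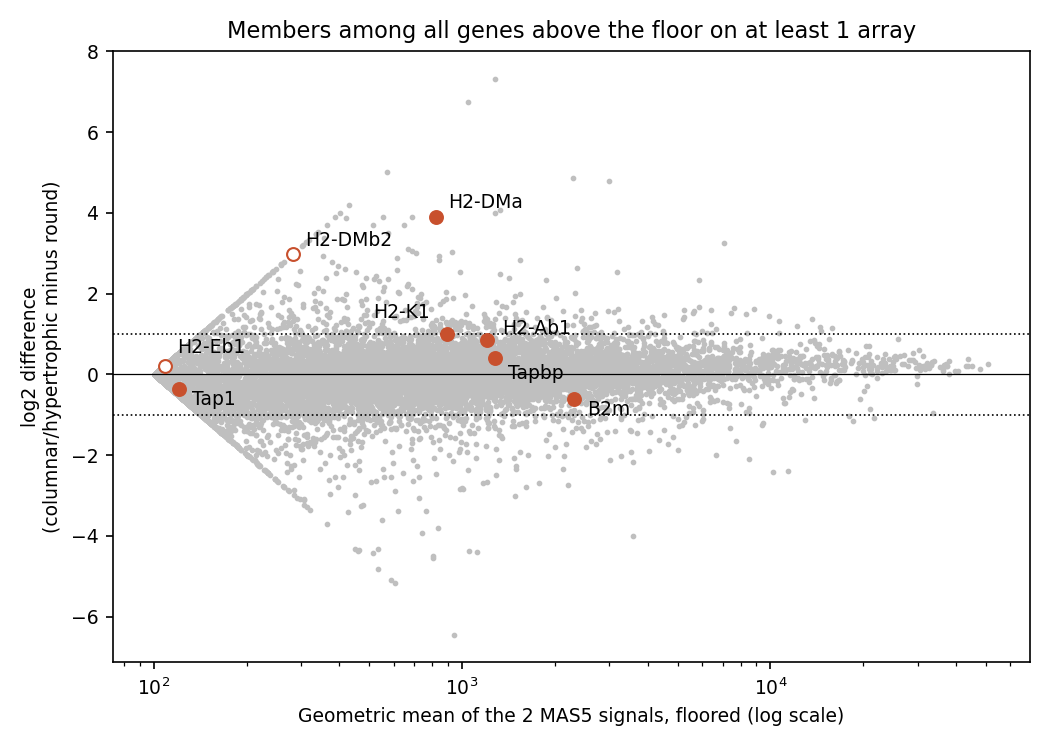
Log2 difference (columnar/hypertrophic minus round) against the geometric mean of the 2 floored MAS5 signals (log axis) for 11703 genes in gray and the 8 measured MHC presentation genes in color, open where the difference is a bound. Dotted lines mark 2-fold. H2-DMa at 3.91 and H2-DMb2 at 2.99 lie far above the upper line, H2-K1 at 0.99 lies just under it, and the remaining 5 lie inside the lines.

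Promoter sequence is shown for the β chain genes and H2-Eb1 because these windows alone hold the X and Y letters searched in that order. The differences of H2-DMb2 and H2-Eb1 were both bounds, and H2-DMb1 had no probe set of its own. The stretches are from RefSeq (GRCm38.p6), 5′ to 3′ on the plus strand of chromosome 17. Capitals mark first the X-box letters (AAC, any base, GATGATG) and then the Y-box letters TGATTGG, with 12 flanking bases on either side. They lie at chr17:34145116-34145175 for H2-DMb2, chr17:34153087-34153146 for H2-DMb1 and chr17:34305766-34305824 for H2-Eb1.
H2-DMb2: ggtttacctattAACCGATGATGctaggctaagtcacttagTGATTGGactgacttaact
H2-DMb1: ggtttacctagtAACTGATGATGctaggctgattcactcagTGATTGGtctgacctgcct
H2-Eb1: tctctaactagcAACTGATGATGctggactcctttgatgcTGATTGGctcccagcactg
The X box began 121 bases before the annotated start of H2-DMb2, 92 before that of H2-DMb1 and 89 before that of H2-Eb1. The boxes were 18 bases apart in both β chain genes and 17 apart in H2-Eb1. The H2-DMb2 and H2-DMb1 stretches were identical at 51 of 60 bases.

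Both motifs were searched on both strands of 32851 windows reaching from 250 bases before to 50 bases after a gene's start. The letters were settled after these windows had been read, so the shares describe how rare the letters are and test nothing. The X letters occurred in 20 windows (0.0609%) and the Y letters, whose core is the common CCAAT box, in 2568 (7.82%). X followed by Y on 1 strand occurred in 3 windows, those printed above. Of the 10 genes 7 had a window, and H2-Ab1, Cd74 and Ciita had none. H2-K1 and Tap1 held the Y letters alone, and the windows of H2-DMa, B2m and Tapbp held neither set of letters. The window of H2-Aa, a class II gene outside the 10, also held the Y letters alone, so the letters searched do not find every class II gene. H2-DMa and H2-DMb2 thus had the 2 highest differences of the 10 genes, and the letters searched were in the window of H2-DMb2 but not in those of H2-DMa, which says nothing about the rest of that promoter.

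Of the class II chains themselves, H2-Ab1 alone was above the floor on both arrays. By the representative probe sets H2-Ab1 differed less than H2-DMa and H2-DMb2. The H2-DMb2 probe set 1419744_at, at 0.33, differed less than H2-Ab1. H2-Ab1, the β chain of the I-A molecule, gave 896 on the round and 1622 on the columnar/hypertrophic array by 1450648_s_at, 1.81-fold higher. Its probe set 1451721_a_at read 532 and 982, and 1425477_x_at read 219 and 581, 2.65-fold higher. All 3 H2-Ab1 probe sets were above the floor on both arrays and higher on the columnar/hypertrophic one. H2-Aa, which encodes the α partner of H2-Ab1, was under the floor on both arrays in every probe set, with 49.3 and 30.6 by the brightest. H2-Eb1, the I-E β chain, read 74.8 and 117, at least 1.16-fold higher and close to the floor. H2-Ea, the α partner of H2-Eb1, is not transcribed in the C57BL/6 haplotype, and it was under the floor on both arrays.

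Cd74, the invariant chain that accompanies class II chains, gave 68.2 and 79.0 with its 1 probe set. Ciita, the coactivator, gave 67.5 and 79.0 by 1421210_at, 7.64 and 44.0 by 1421211_a_at, and 2.34 and 1.83 by 1447075_at. All 4 probe sets were under the floor, so no level or difference was measurable, which sets a limit on signal and does not show absence of the transcripts. H2-Oa and H2-Ob, the chains of H2-DO that inhibits H2-DM, were also under the floor on both arrays, at 5.88 and 11.1 and at 21.9 and 1.20. Of 12 class II chains and editors listed, 10 had a probe set of their own, 4 of these exceeded the floor on 1 array or both, and the 2 H2-DM genes were at least 2-fold higher. None was 2-fold lower. Those 4, H2-DMa, H2-DMb2, H2-Ab1 and H2-Eb1, are all among the 10 genes chosen with their signals known. By the representative probe sets H2-DMb2 and H2-Eb1 exceeded the floor on the columnar/hypertrophic array alone, so they could not come out lower. The list's median difference over the 4 was 1.92, with these 2 entered at their bounds.

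The endosomal proteases that prepare class II molecules were abundant enough to be measured on both arrays, with 1 exception. Lgmn, an asparaginyl endopeptidase that cleaves antigens and the invariant chain, read 250.2 on the round and 2012 on the columnar/hypertrophic array, 8.04-fold higher. It was the only gene of 10 in this list to pass 2-fold under the scaling used. Ctsl, cathepsin L, went the other way from 8456 to 4304, a difference of -0.97 that passed 2-fold with quantile normalization (-1.12) and lowess centering (-1.13). Ctsb, cathepsin B, read 4482 and 2932, and Ifi30, a thiol reductase of lysosomes, 1686 and 1151. Ctss, the protease that trims the invariant chain in professional antigen presenting cells, was under the floor at 25.6 and 17.3. Of this list 8 genes exceeded the floor, and their median difference was -0.28.

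The factors that bind X and Y boxes were present on both arrays. Rfx5, the large subunit of the RFX complex, read 1039.9 and 919.6, and Rfxap, another subunit, 942 and 1261. Rfxank, the remaining RFX subunit, differed by 2.27-fold, lower on the columnar/hypertrophic array, by its representative probe set, at 797 and 351, while 1419310_s_at gave 418 and 417. Nfya, a subunit of the CCAAT-binding factor NF-Y, read 554 and 618. Of 8 genes in the class II transcription list 7 were above the floor and 1, Rfxank, passed 2-fold, which it no longer did with equal medians or with the mean of probe sets. Ciita was the 1 gene of that list under the floor on both arrays.

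Class I genes did not differ in 1 direction. The heavy chain gene H2-K1 read 632 on the round and 1259 on the columnar/hypertrophic array by 1425336_x_at, 1.99-fold higher and just short of the 2-fold rule, which it passed under all 3 other scalings. Of the 10 genes it was the nearest below 2-fold, and H2-DMb2 at 7.92-fold or more the nearest above. The H2-K1 probe set 1427746_x_at read 93.0 and 308, at least 3.06-fold higher, and 1451931_x_at read 359 and 268, a difference of -0.42. The remaining H2-K1 probe set was under the floor on both arrays, at 49.9 and 97.1. All 4 carry the suffix that the manufacturer gives to probes able to hybridize with related genes, and class I heavy chain genes are near-identical in sequence, so the H2-K1 signal is uncertain. H2-D1, the other classical heavy chain of this strain, went the opposite way by its representative probe set, with 1288 and 606, 2.13-fold lower. Its other probe sets also disagreed, with 445 and 246 by 1425545_x_at but 111 and 171 by 1426324_at.

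B2m, the light chain shared by class I molecules, was lower on the columnar/hypertrophic array in both probe sets. The representative, 1452428_a_at, read 2853 and 1877, a difference of -0.60. The other, 1449289_a_at, read 2907 and 1439.8, or 2.02-fold lower. The light chain therefore differed in the opposite direction to the representative H2-K1 probe set. Of 13 genes in the class I list with a probe set of their own, 10 exceeded the floor on 1 array or both. At least 2-fold lower were 3, H2-D1, Mr1 and Fcgrt. The 13 and the 10 include H2-Ke6, a gene of the MHC region that is not a class I chain, at 403 and 358. Mr1, which presents vitamin B metabolites, read 275 and 122, and Fcgrt, the neonatal Fc receptor, 2651 and 1278. With the arrays scaled to equal medians, none of these 3 passed 2-fold.

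Most peptide loading genes differed by less than 2-fold. Tapbp, tapasin, which bridges class I molecules and TAP, read 1111 and 1479 by 1421812_at and 317 and 356 by 1450378_at, differences of 0.41 and 0.17. Tap1, a subunit of the TAP transporter, read 137 and 107 by 1416016_at, a difference of -0.35 at a level near the floor. Its other 3 probe sets were under the floor on both arrays. Tap2, the partner subunit, read 118 and 23.2. Erap1, the aminopeptidase that trims peptides in the endoplasmic reticulum, was the 1 gene of 8 in the peptide loading list to pass 2-fold, with 309 and 70.3, at least 3.08-fold lower. With the mean of probe sets no gene of that list was 2-fold lower, and with no floor 2 were. The general chaperones Calr and Canx, which also fold class I molecules, read 13056 and 15798, and 9503 and 13128.

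Of 5 genes in the immunoproteasome list with a probe set of their own, 2 were under the floor on both arrays, the interferon-inducible subunits Psmb8 and Psmb9. The first read 42.6 and 6.02 and the second 54.8 and 50.7. Above the floor on both arrays were Psmb10, another inducible subunit, at 186 and 230, and Psme1, of a proteasome activator, at 926 and 714. Psme3, an activator of nuclear proteasomes, was 2.21-fold higher at 225 and 495, while 1418078_at read 110.4 and 188, 1.70-fold higher. With the mean or the dimmest of its probe sets Psme3 did not pass 2-fold. Genes that respond to interferon gamma or carry its signal were mostly lower in columnar/hypertrophic cartilage, 11 of 13 measured, beside 54.9% of all genes that exceeded the floor. Irf2, 1 of the 11 at -0.08, was above 0 under all 3 other scalings. Of 20 with a probe set of their own 13 were above the floor on 1 array or both, and 4 of the 13 differences were bounds. By the representative probe sets 5 were at least 2-fold lower and none was 2-fold higher, with a median of -0.55. Gbp7, a guanylate-binding protein, read 1268 and 159.7, 7.94-fold lower, and by 1425156_at 523 and 165, 3.17-fold lower. Igtp, an immunity-related GTPase, read 377 and 109, 3.46-fold lower. Socs3, a feedback inhibitor of cytokine signaling, read 448 and 186, and by 1455899_x_at 672 and 35.5, at least 6.68-fold lower. Irf1, a transcription factor, read 719 and 338. Jak2, a kinase of the interferon gamma receptor, read 3157 and 1529, and by 1421065_at 1231 and 737, 1.67-fold lower. Jak1, another such kinase, read 608 and 691, and by 1433804_at 100.3 and 276, at least 2.75-fold higher. Nlrc5, the coactivator of class I genes, was under the floor at 49.3 and 30.9. With equal medians Gbp7 and Igtp alone stayed past 2-fold.

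**Figure D3:**
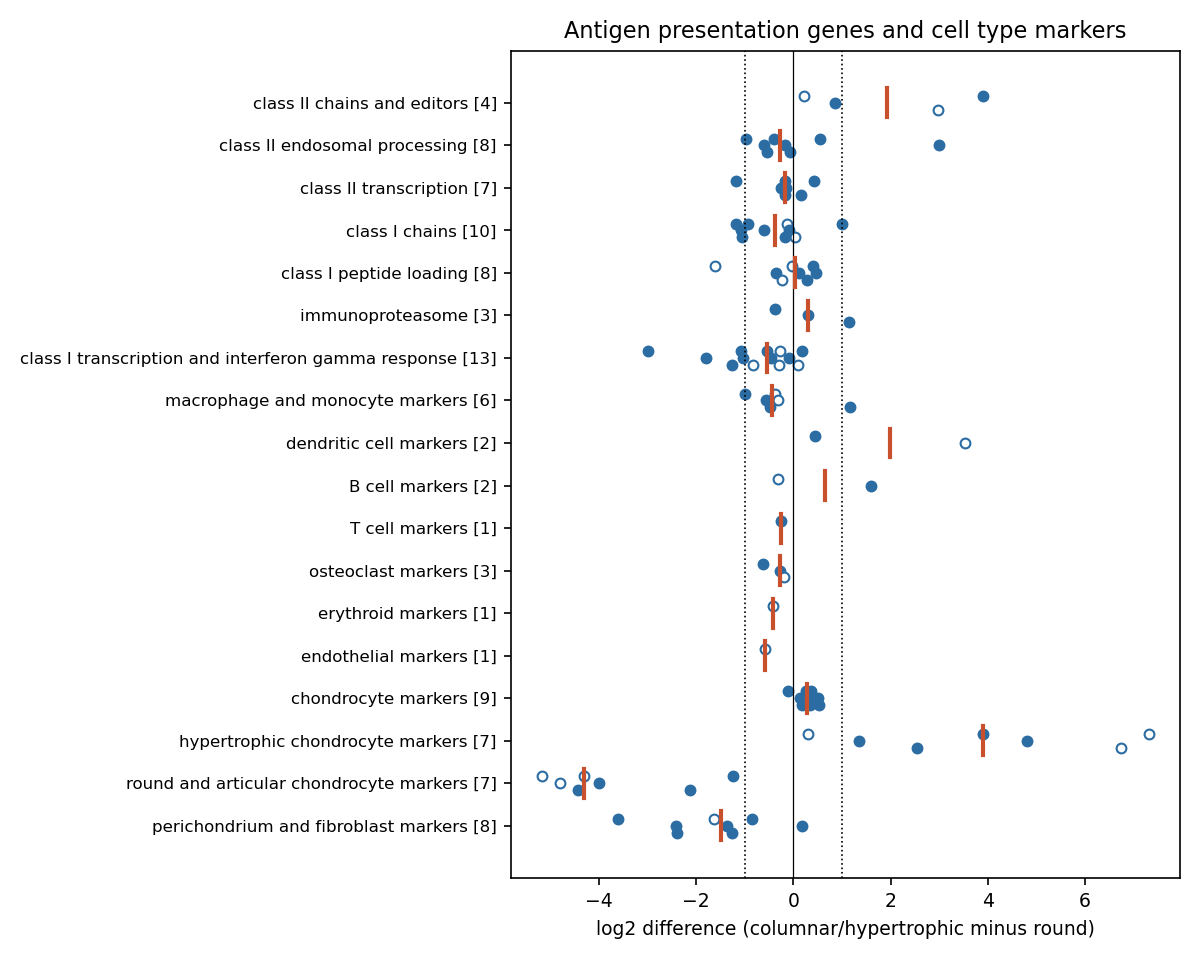
Log2 difference (columnar/hypertrophic minus round) of genes exceeding the floor on 1 array or both, for antigen presentation lists and cell type marker lists. Open points are bounds, and bars mark list medians. Within the antigen presentation lists H2-DMa, H2-DMb2 (a bound) and Lgmn stand at 2.99 or higher, while the interferon gamma list extends down to Gbp7 at -2.99.

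Most of the class II genes lie with H2-K1 in 1 segment of chromosome 17, which allows the 2 H2-DM genes to be set beside their neighbors. In RefSeq order (GRCm38.p6) 27 genes run from H2-K1 to H2-Eb1, of which 18 had a probe set of their own and 13 exceeded the floor on 1 array or both. The 2 genes at least 2-fold higher were H2-DMa and H2-DMb2, and none was 2-fold lower. Brd2, a bromodomain gene next to H2-DMa, read 2541 and 2638, a difference of 0.05 that falls just under 0 with quantile normalization or lowess centering. The unrelated genes nearer to H2-K1 also differed little. Ring1, a Polycomb subunit, read 662 and 503, Slc39a7, a zinc transporter, 5875 and 7396, Rxrb, a nuclear receptor, 1081 and 1094, and Col11a2, a cartilage collagen, 20749.8 and 25192. Psmb8, Psmb9, H2-Aa, H2-Oa and H2-Ob, which lie among the class II genes, were the 5 under the floor on both arrays.

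**Figure D4:**
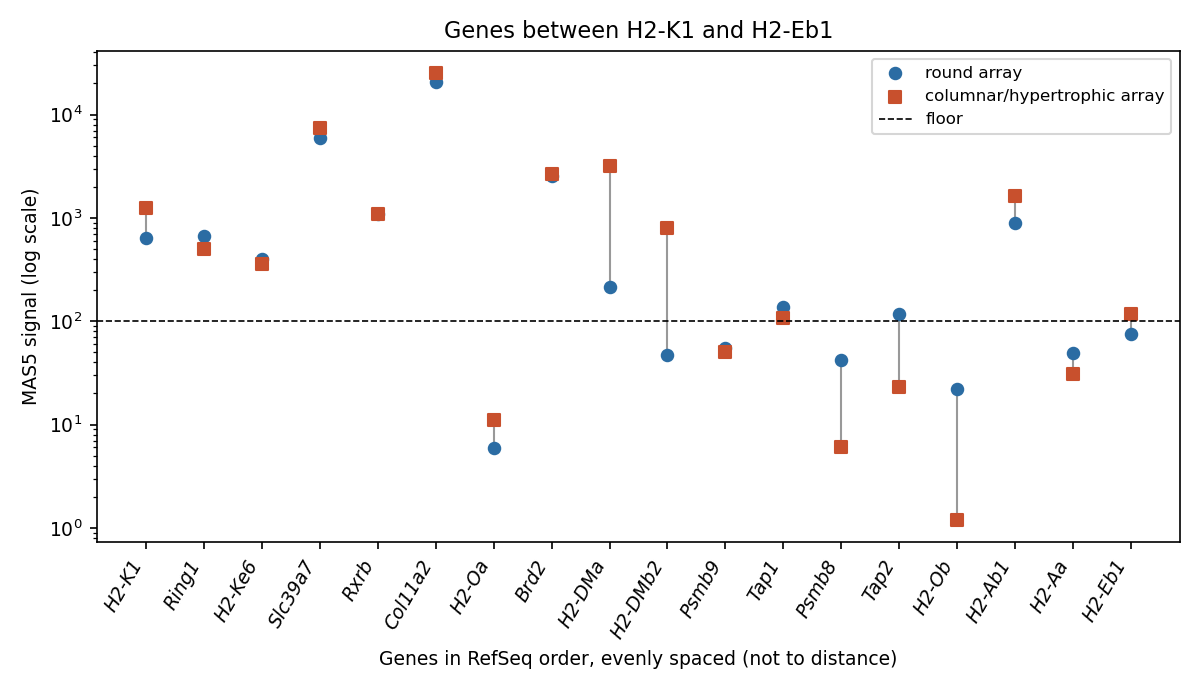
MAS5 signals of the round and columnar/hypertrophic arrays, compared on a log scale for genes of the chromosome 17 segment from H2-K1 to H2-Eb1. Genes are drawn in RefSeq order and not to scale. The log2 difference (columnar/hypertrophic minus round) was 3.91 for H2-DMa and 2.99, a bound, for H2-DMb2, beside 0.05 for the neighbor Brd2.

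The labels were checked against marker genes, and cells that usually carry class II molecules were looked for in the same way. All 9 chondrocyte markers were above the floor on both arrays, with Col2a1, type II collagen, at 33307 and 37936. Of the 8 hypertrophic markers 6 were higher on the columnar/hypertrophic array by 2-fold or more, among them Col10a1 at 24.2 and 10818, and all 7 round and articular markers were at least 2-fold lower. Of the perichondrium and fibroblast markers 7 of 10 were above the floor on both arrays, and 6 of 10 were lower on the columnar/hypertrophic one by 2-fold or more.

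Of 19 macrophage and monocyte markers, 13 were under the floor on both arrays, among them Ptprc, the pan-leukocyte CD45, at 20.3 and 14.6, and the complement genes C1qa, C1qb and C1qc. The summed signal of the list was 1677 on the round and 1154 on the columnar/hypertrophic array. This sum and those below include signals under the floor, which are not measured levels, so a difference between sums may be partly background. Csf1r, the macrophage growth factor receptor, read 190.2 and 129, and Lyz2, lysozyme, 130.1 and 293, the 1 marker of the list that was 2-fold higher. Laptm5, a lysosomal membrane protein of blood cells, had the highest round signal of the list and read 466 and 234. Its probe sets 1426025_s_at, at 401 and 267, and 1447742_at, at 193 and 133, were also lower. Its probe set 1417721_s_at read 82.9 and 126, at least 1.26-fold higher. Among 9 dendritic cell markers, 7 were under the floor on both arrays, Itgax and Flt3 among them. The list's sum went from 831 to 1938, mostly through Batf3, a transcription factor, which read 98.5 and 1158, at least 11.5-fold higher. Zbtb46, another transcription factor of that list, read 382 and 519. Among 7 B cell markers 5 were under the floor on both arrays, Cd79a, Cd79b and Ms4a1 among them, and the sum was 478 and 630. It followed Ebf1, a transcription factor also made by mesenchymal cells, at 158 and 478, 3.03-fold higher. Pax5, the other marker of that list above the floor, went the opposite way at 125 and 59.4. Of the T cell markers 6 of 7 and all 8 granulocyte and mast cell markers were under the floor on both arrays. The T cell sum was 447 and 318, of which Cd8a, the 1 marker above the floor, gave 240 and 200. In bulk RNA fewer cells of a type and less RNA per cell cannot be told apart, and the part of Batf3-, Lyz2- or Ebf1-expressing cells in the H2-DM signals was not tested.

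The genes whose log2 signals lay nearest to those of H2-DMa on both arrays, outside the lists above, were Runx3, Wnt5a, Rras2 and Fam89a, at Euclidean distances of 0.37, 0.52, 0.66 and 0.69 over 2 arrays. Runx3, a transcription factor of maturing chondrocytes, read 178 and 2638, and Wnt5a, a secreted signal, 179.6 and 2321. Signals of different probe sets are not on 1 scale, so the distance describes likeness on these arrays alone.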

How the data were processed

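RNA from each group was hybridized to 1 Affymetrix mouse array. The authors deposited 1 linear intensity per probe set, and the submitters' processing notes name MAS5, which subtracts background and scales each array (no version was given in the sources used here). The study's methods name RMA, a log-scale algorithm. The values were linear with a trimmed mean of 500.0 on both arrays, and were therefore taken as MAS5 signals. Medians over 45101 probe sets were 128 (round) and 105 (columnar/hypertrophic), and 55.0% and 50.8% of probe sets were above the floor. MAS5 signals of dim probe sets are noisy, and the number of arrays limits precision. The platform annotation gave 34945 probe sets 1 symbol, 932 several and 9160 none, and 64 were controls. Probe sets with several symbols named no gene.

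Python 3.11.15 with numpy 2.4.6, pandas 2.3.3, statsmodels 0.14.6 and matplotlib 3.10.9 was used. The floor was the 95th percentile of 87 chemosensory receptor probe sets (Olfr, Vmn, Tas1r or Tas2r, Taar). Differences followed a size rule of 2-fold, with no test. The calculation was tested on simulated data, with changes planted only in genes well above the floor on both arrays. The simulated noise was the technical spread of probe sets. Genes near the floor, bounds and variation between arrays or animals were therefore not covered. The 10 genes and the 19 lists (7 of antigen presentation, 12 of cell type markers) were chosen with earlier results of these data known. Named genes were the 10 genes, list genes past 2-fold, those with the largest differences or highest signals, measured genes of the chromosome 17 segment, and the 4 nearest to H2-DMa. Marker genes outside that rule, and Nlrc5, Psmb8, Psmb9, H2-Ea and the other genes under the floor, were added once their values had been seen. The alternatives tried were equal medians, quantile normalization, lowess centering (span 0.3), floors at the 90th and 99th percentiles (82.2 and 145), no floor, the mean of probe sets, and no probe sets marked x_at or s_at.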

Additional observations from a re-analysis of the deposited data

Results flagged for a closer look

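Signals above the floor were seen in probe sets that match more than 1 MHC gene and that the gene comparisons left out. On the columnar/hypertrophic array 1418638_at, matching H2-DMb2 and H2-DMb1, read 732 against 70.3 on the round array, and 1449580_s_at, matching the same genes, read 1265 against 80.2. These are at least 7.28-fold and at least 12.6-fold higher. The probe set 1418536_at, matching the class I genes H2-Q9 and H2-Q7, read 924 against 452, 2.04-fold higher. Neither array is a control, so the comparison is with the floor and between the arrays, and it was not tested.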

How the results depend on the processing

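H2-DMa differed by 3.91 to 4.19 under the 3 scalings, the other floors, no floor and without x_at or s_at probe sets. The mean of its 2 probe sets gave 2.39, and its dimmest probe set above the floor, an alternative chosen after seeing the data, a bound of 0.87. Of the 10 genes, the number at least 2-fold higher was 4 with equal medians (H2-Ab1 and H2-K1 added), 3 with quantile normalization, lowess centering or the mean of probe sets, and 1 with no floor or without x_at or s_at probe sets, where H2-DMb2 gave 0.33. With the dimmest probe sets 1 was 2-fold lower, B2m at -1.01. Equal medians moved the median of all genes from -0.05 to 0.22, giving 943 higher and 414 lower genes. Lower genes numbered 1171 with no floor and 490 with the mean of probe sets. Among the 8 genes measured no difference changed sign under these settings. With the floor at the 99th percentile H2-Eb1 and Tap1 had no difference, since their signals fell under it. Without x_at or s_at probe sets H2-K1 could not be assessed, because all 4 of its probe sets are marked x_at. Apart from the H2-DMa difference and the counts over the 10 genes or all genes, 186 values were recomputed. Of these 158 moved less than the technical spread of probe sets or, for counts, by 1.5 times at most, and 28 moved more. No paired analysis was possible because each group is 1 array. Leaving out an array was not possible for the same reason. Differences near the floor, as of H2-Eb1 and Tap1, are limited by signal over background.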
